A study of Mus musculus with 10 samples.

Results

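The Klr genes are the killer cell lectin-like receptor genes, most of which form the natural killer (NK) gene complex on mouse chromosome 6. Members were taken by name, as every gene entry of the deposited count table that begins with Klr. That gave 30 of 46959 gene entries. By subfamily there were 14 Klra, 6 Klrb, 3 Klrc, 2 Klrg and 2 Klri genes, and 1 gene each of Klrd, Klre and Klrk. The table's mm10 coordinates placed 28 of them in 1 stretch, chr6:128609227-131247362 (2638 kb). Klrg2 (chr6:38625693-38637242) and Klrg1 (chr6:122270596-122282882) lay elsewhere on that chromosome. The reverse strand carried 26 members and the forward strand 4, and 4 members are pseudogenes by name.

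RNA was sequenced from mouse cells labelled as femoral (bone marrow) B cells or as splenic B cells, in 10 libraries that form 5 groups of 2. The series concerns deletions of enhancers of the immunoglobulin heavy chain locus, and the histone deacetylase inhibitor SAHA. The femoral groups are 2KO (replicates 1 and 3), deltaEmu (5 and 7) and RAG2_deficient (1 and 2), all labelled with the C57BL6 background and an age of 8 to 10 weeks. The labels do not spell out 2KO. The design text names mice that lack Eµ together with the 3′ regulatory region, deltaEmu is labelled as a deletion of Eµ, and RAG-2 is one of the recombinases that assemble antigen receptor genes. No unmodified femoral group was analysed here. The spleen groups are LPS_IL4_SAHA and LPS_IL4 (pools 4_et_7 and 6_et_8 in each), named wt, with strain 129 and the same age given. They are CD43-negative spleen cells held for 48 h with lipopolysaccharide (5 µg/ml) and interleukin 4 (20 ng/ml). For SAHA the sample names state 200 nM, whereas the protocol states 200 ng/ml. The growth protocol also mentions KOKI and BLACK-6 donors for the spleen cells. Each library is an RNA pool, so p-values rest on the spread between pools alone, which may be technical.

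Total gene counts ran between 17710154 and 25544275 a library. Columns of the table carry numbers only and were read by the sequencing index that closes each description. Sample titles number 8 of the 10 columns differently, and under the title numbering the comparisons below would not hold. In the columns read as spleen, the neutrophil marker S100a8 had 0 to 0.167 CPM and the B cell marker Ms4a1 705 to 906 CPM. In those read as femoral, S100a8 had 1630 to 5200 CPM and Ms4a1 0.267 to 22.9 CPM. These values go with the reading used here for tissue, but do not settle the groups within a tissue. Titles also place SAHA on the opposite spleen samples, which would turn the sign of that comparison. Rag2 had 20.1 and 13.3 CPM (counts scaled by library size) in 2KO, 13.6 and 20.4 CPM in deltaEmu and 21.7 and 23.8 CPM in RAG2_deficient. The Rag2 level was therefore no lower in the libraries labelled RAG2_deficient, and a count over the whole gene cannot show whether a part of it is deleted. Cd3e, a gene for a signalling chain of the T cell receptor complex, had no count in either library labelled RAG2_deficient. Its level was also low elsewhere, at 0.714 and 0.49 CPM in 2KO and 0.443 and 0.742 CPM in deltaEmu. Of 13 T cell markers tested, 4 (Cd3e among them) were called higher in deltaEmu than in RAG2_deficient and 1 (Cd4) lower. Summed over 4 Y-linked genes, the level was 110 to 116 CPM in 2KO, 127 to 162 CPM in deltaEmu and 0 to 0.296 CPM in RAG2_deficient, so sex differs between RAG2_deficient and the other femoral groups. Cells labelled femoral B cells also held RNA of other lineages. The 10 neutrophil markers summed to 9050 to 11000 CPM in 2KO, 18100 to 20700 CPM in deltaEmu and 6910 to 7700 CPM in RAG2_deficient, against 421 to 670, 511 to 808 and 1610 to 1700 CPM for the 10 B cell markers in the same order of groups.

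Klr receptors are C-type lectin-like proteins of the surface of NK cells and some T cells, where inhibitory and activating members read ligands on neighbouring cells. Klra genes encode the Ly49 receptors, most of which bind MHC class I. Klrb genes encode NKR-P1 receptors, whose known ligands are products of the interspersed Clec2 genes. The Klrd1 product CD94 pairs with the NKG2 chains of the Klrc genes to read the MHC class Ib molecule Qa-1, and Klrk1 encodes NKG2D, which reads stress-induced ligands. Gene content and alleles of this complex vary widely between mouse strains.

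RefSeq promoter entries on GRCm38.p6 were found for 23 members, and 7 had none in the table used. Shown are 5 promoters of genes on which the results turn, each 250 bases before to 50 bases after the RefSeq start and printed 5′ to 3′ on the gene's strand. Klra3 and Klrb1b were nearly uncounted in deltaEmu, Klra17 was highest there, Klra4 is a close relative of Klra17 in promoter sequence with another pattern, and Klrb1f was level across the femoral groups. Capitals mark matches, on either strand, to 4 short motifs. The Runx motif was searched as TGTGGT. The T-box motif, bound by factors such as T-bet and Eomes, was searched as GGTGTG. The motif of TCF factors was searched as CTTTGA. The TATA box was searched as TATAAA. The windows are chr6:130337577-130337876 (Klra3, reverse), chr6:128826266-128826565 (Klrb1b, reverse), chr6:129876623-129876922 (Klra17, reverse), chr6:130067222-130067521 (Klra4, reverse) and chr6:129045651-129045950 (Klrb1f, forward).
Klra3: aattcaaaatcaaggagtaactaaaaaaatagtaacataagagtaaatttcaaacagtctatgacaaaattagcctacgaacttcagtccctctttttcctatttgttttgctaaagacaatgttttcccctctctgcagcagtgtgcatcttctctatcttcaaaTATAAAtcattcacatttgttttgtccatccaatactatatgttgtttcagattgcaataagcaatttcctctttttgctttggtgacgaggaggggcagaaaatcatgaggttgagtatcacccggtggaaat
Klrb1b: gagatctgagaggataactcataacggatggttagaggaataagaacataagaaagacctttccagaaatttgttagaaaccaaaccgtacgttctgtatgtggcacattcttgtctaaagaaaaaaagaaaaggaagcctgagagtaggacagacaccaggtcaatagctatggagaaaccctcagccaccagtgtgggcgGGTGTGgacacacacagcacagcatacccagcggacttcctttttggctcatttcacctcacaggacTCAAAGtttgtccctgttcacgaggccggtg
Klra17: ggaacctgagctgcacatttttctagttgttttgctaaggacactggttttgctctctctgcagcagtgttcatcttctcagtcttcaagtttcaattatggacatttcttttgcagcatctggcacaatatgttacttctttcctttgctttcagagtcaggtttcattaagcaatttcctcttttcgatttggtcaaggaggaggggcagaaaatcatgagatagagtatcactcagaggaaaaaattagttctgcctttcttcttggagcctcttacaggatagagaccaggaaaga
Klra4: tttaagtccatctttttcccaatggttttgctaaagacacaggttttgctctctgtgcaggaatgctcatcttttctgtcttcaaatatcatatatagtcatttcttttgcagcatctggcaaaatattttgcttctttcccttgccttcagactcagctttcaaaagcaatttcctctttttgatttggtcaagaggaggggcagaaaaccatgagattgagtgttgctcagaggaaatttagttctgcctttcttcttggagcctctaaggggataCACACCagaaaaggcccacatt
Klrb1f: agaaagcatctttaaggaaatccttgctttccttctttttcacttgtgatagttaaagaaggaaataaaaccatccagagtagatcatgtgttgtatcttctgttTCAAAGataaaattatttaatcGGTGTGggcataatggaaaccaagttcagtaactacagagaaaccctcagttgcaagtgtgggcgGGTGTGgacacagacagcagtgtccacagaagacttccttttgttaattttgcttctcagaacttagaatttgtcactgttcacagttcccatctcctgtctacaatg

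The 5 windows differed in these motifs. Klra3 held 1 TATA match, Klrb1b held 1 T-box and 1 TCF match, Klra4 held 1 T-box match, Klrb1f held 2 T-box and 1 TCF matches, and Klra17 held none of the 4. No printed matches overlapped. Among the 23 promoters, 8 held the Runx letters, against 16.8% of the 32851 promoters in the table. The T-box letters stood in 6 of the 23, against 19.0% of all promoters, and the TCF letters in 6, against 16% of all promoters. TATA letters stood in 9, against 13.6% of all promoters. These 9 were Klrc1, Klrc2 and 7 Klra genes (Klra3, Klra5, Klra6, Klra7, Klra8, Klra9 and Klra10). By global alignment the Klra17 window was 79.3% identical to that of Klra4, and Klra4 was 86.0% identical to Klra8. Identity over the 55 Klra pairs ran between 42.9% and 86.0% with a median of 48.7%, while Klrb1b and Klrb1f windows were 55.0% identical.

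Near-identical copies limit what can be read from single genes. Of the 50-base words in GENCODE vM21 transcripts, those shared with another Klr gene made up 0% for Klra2, Klra17, Klrb1, Klrb1f, Klrd1, Klre1 and Klrk1, and 1.19% for Klri2. The share was 39.8% for Klra10, 38.6% for Klrc1, 36.3% for Klrc3, 33.1% for Klra8, 31.5% for Klra9, 25.6% for Klra14-ps and 20.7% for Klra3. Klrb1b shared 27.2% and Klrb1c 17.0% of their words with any other gene. Counts of these genes are uncertain, since how such reads were assigned is not given in the sources used here.

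Klr RNA was present in all 6 femoral libraries and close to absent in the 4 spleen libraries. Summed over the 30 members, the level was 133 and 126 CPM in 2KO, 177 and 144 CPM in deltaEmu and 204 and 268 CPM in RAG2_deficient. In spleen the sum was 2.67 and 2.16 CPM with SAHA and 1.94 and 2.53 CPM without. The femoral groups did not overlap in this sum, with 2KO lowest and RAG2_deficient highest. Without Klra2, Klra17, Klrg1 and Klrg2, the other 26 members summed to 106 and 91.9 CPM in 2KO, 111 and 84.7 CPM in deltaEmu and 179 and 226 CPM in RAG2_deficient. In that sum 2KO lay within the deltaEmu libraries, and RAG2_deficient was again highest. In these bulk samples, fewer cells that carry a receptor and less RNA per cell cannot be told apart. Differences between groups in gene content or alleles of the complex, which also alter counts, were not tested. A count in every femoral library was found for 23 members, and 4 had one in all 10 libraries.

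**Figure D1:**
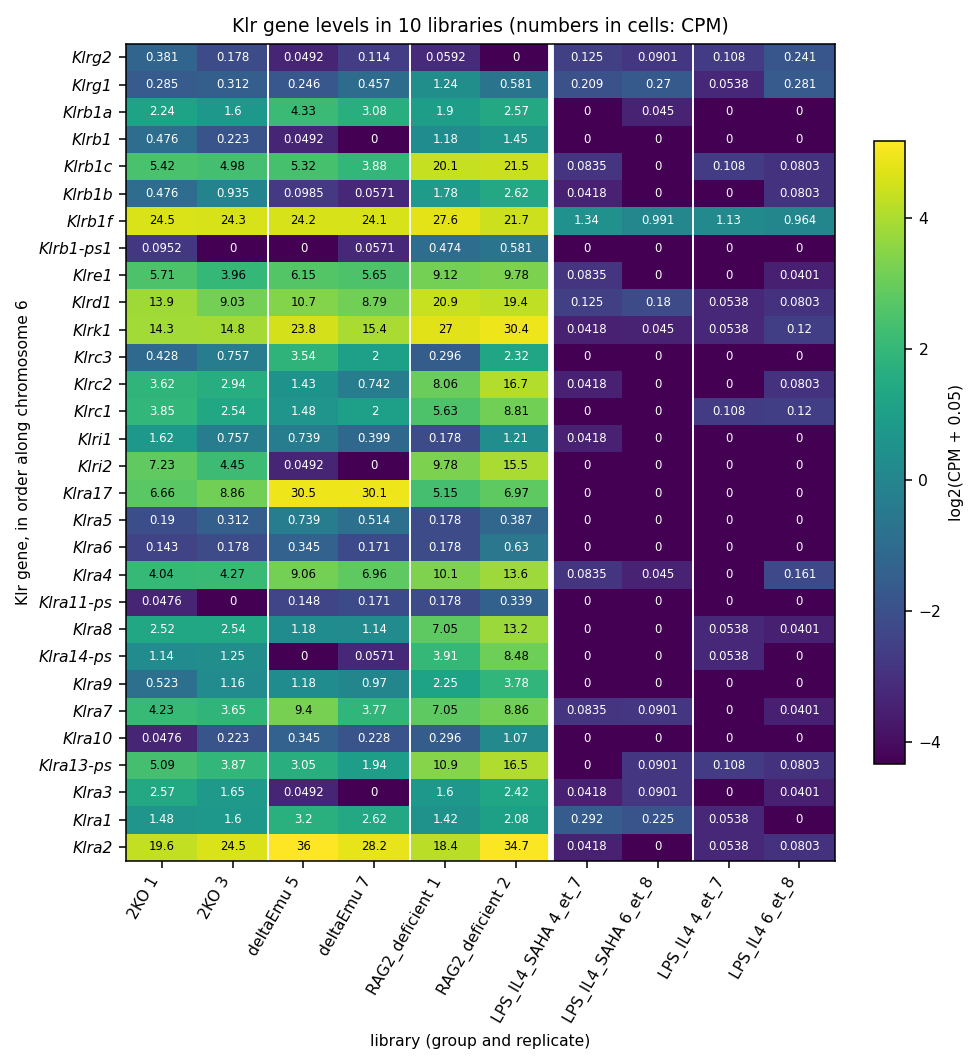
Level of each of the 30 Klr genes (rows, in order along chromosome 6) in each of the 10 libraries (columns), coloured by log2(CPM + 0.05) with the CPM value printed in each cell. Femoral libraries (left of the thick line) hold most of the signal, and Klri2, Klra14-ps and Klra3 are at 0 to 0.0571 CPM in deltaEmu.

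Per kb of transcript length, the highest mean femoral levels were those of Klra2 (14.2 CPM per kb), Klra17 (12.3 CPM per kb), Klrb1f (12.1 CPM per kb) and Klrd1 (10.8 CPM per kb). Klra13-ps followed at 6.62 CPM per kb and Klra4 at 6.42 CPM per kb. The order differed between groups. In RAG2_deficient Klrd1 led at 15.7 CPM per kb, ahead of Klra2 at 14.0 CPM per kb. In deltaEmu Klra17 led at 25.4 CPM per kb, and in 2KO Klrb1f led at 12.0 CPM per kb, close to Klra2 at 11.6 CPM per kb. The 6 members under 1 CPM in every group and called in no comparison were Klrg1, Klrg2, Klrb1-ps1, Klra6, Klra10 and Klra11-ps, with library levels of 0 to 1.24 CPM.

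Set against spleen, femoral libraries were higher in 24 of the 25 members tested and lower in none. Over all 17483 genes tested, 71.4% were called in either direction, 40.9% higher and 30.6% lower. Femoral and spleen libraries did not overlap for 21 of the 30 members, against 55.4% of genes tested. The 30 include members too low for the test, unlike that share. Klrg1 was the member tested and not called, at 1.11 ± 0.48 (log2 fold change ± SE, adjusted p = 0.0585). The median log2 fold change of the 25 was 6.84, or 6.27 with the 6 tested members that had no spleen count set at their lower bounds, against 0.21 over all genes. Those bounds, at 3 counts a library, were at least 108-fold for Klra17, 45.5-fold for Klri2, 12.1-fold for Klra9, 11.5-fold for Klrc3, 4.16-fold for Klrb1 and 2.85-fold for Klra5. Tissue, labelled strain, genotype (every femoral library is from mutant mice and every spleen library is named wt), CD43-negative selection of the spleen cells and culture differ together between these libraries and cannot be told apart. Without deltaEmu 5 the calls of Klrb1, Klri2 and Klra3 were lost, and without deltaEmu 7 that of Klra14-ps was lost.

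The 19 NK markers in the table, none of them a Klr gene, were also higher in femoral libraries in 19 of 19 cases. Their sum was 275 to 302 CPM in 2KO, 280 to 337 CPM in deltaEmu, 265 to 325 CPM in RAG2_deficient and 14.1 to 18.2 CPM in spleen. Genes of high level weigh most in this sum, with Il18rap alone at 48.2 to 77.9 CPM in femoral libraries. The sum therefore does not measure the number of NK cells. Ncr1, the activating NK receptor NKp46, had 9.94 and 8.54 CPM in 2KO, 14.0 and 11.0 CPM in deltaEmu and 10.5 and 19.8 CPM in RAG2_deficient, against at most 0.0901 CPM in spleen. Between femoral groups the NK marker sums overlapped. None of the 19 was called in 2KO against deltaEmu or in 2KO against RAG2_deficient, and only Xcl1, a chemokine gene, was higher in deltaEmu than in RAG2_deficient (log2 fold change 1.16 ± 0.26, adjusted p = 0.0306). Their median log2 fold changes were -0.11, -0.18 and -0.01 in those comparisons.

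**Figure D2:**
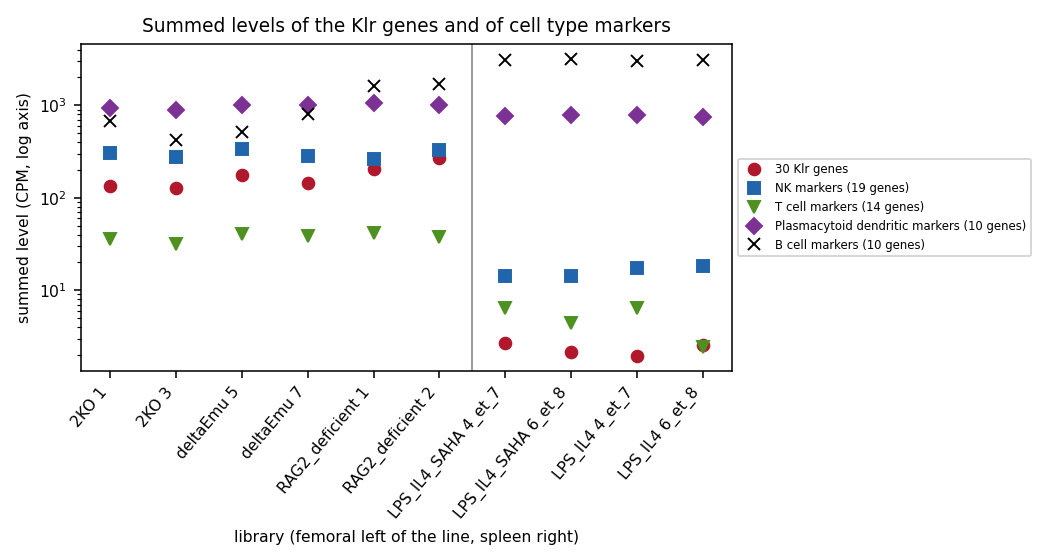
Summed level (CPM, log axis) of the 30 Klr genes and of 4 cell type marker lists in each library. NK marker sums of the femoral libraries lie between 265 and 337 CPM with overlapping groups, while Klr sums lie between 126 and 268 CPM and are highest in both RAG2_deficient libraries.

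Among femoral libraries, 24 members passed the filter on low counts. In 2KO against deltaEmu, 4 were called, with 3 higher (Klri2, Klra3 and Klra14-ps) and 1 lower (Klra17). Over all 16538 genes the share called was 3.7%, made up of 1.79% higher and 1.91% lower. In 2KO against RAG2_deficient, 7 were called, all lower, against 4.31% of all genes in either direction, 1.26% higher and 3.05% lower. In deltaEmu against RAG2_deficient, 12 were called, with 1 higher (Klra17) and 11 lower, against 9.81% of all genes, 4.42% higher and 5.39% lower. The last 2 comparisons share the RAG2_deficient libraries. Medians of the 24 tested log2 fold changes were 0.11, -1.17 and -1.25 in these 3 comparisons, and those of all genes were -0.015, -0.001 and -0.012. Libraries of the 2 groups did not overlap for 22, 20 and 22 of the 30 members, where 57.1%, 47.3% and 52.8% of tested genes did not. The 30 include members too low for the test, unlike those shares.

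The group mean was highest in RAG2_deficient for 17 of the 24, in deltaEmu for 5 and in 2KO for 2. Over all genes tested, these shares were 34.2%, 37.9% and 27.9%. The group mean was lowest in deltaEmu for 13 members, in 2KO for 10 and in RAG2_deficient for 1. Over all genes those shares were 32.5%, 28.4% and 39.2%. Libraries of a group also differed in step. RAG2_deficient 2 exceeded RAG2_deficient 1 for 21 of the 24, against 45.9% of all genes, and deltaEmu 7 exceeded deltaEmu 5 for 3 of the 24, against 44.5%.

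**Figure D3:**
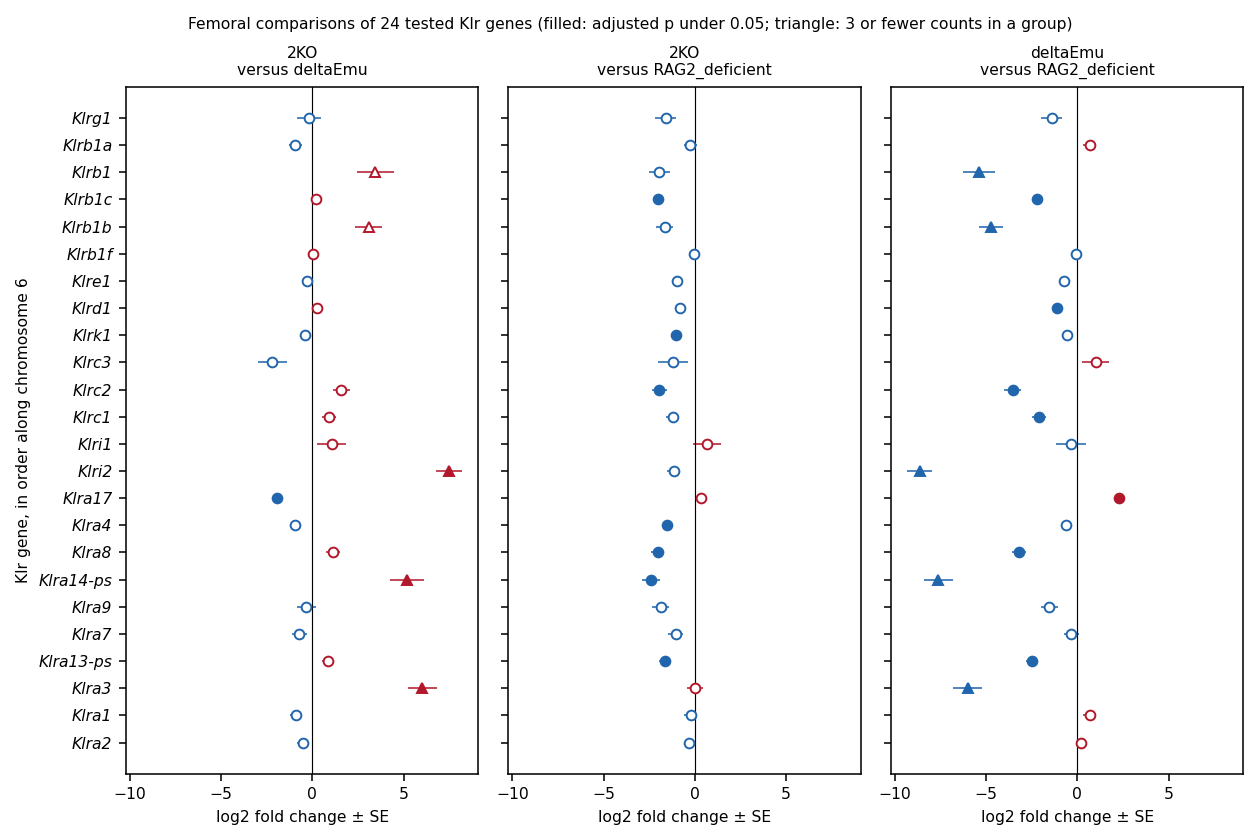
Log2 fold change ± SE of the 24 tested Klr genes (rows, in order along chromosome 6) in the 3 femoral comparisons, on 1 shared axis. Filled symbols passed the test, 4, 7 and 12 of them from left to right, and triangles mark genes with 3 or fewer counts in 1 group, whose fitted values depend on the added prior count.

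The calls depended on single libraries, and the number called over all genes changed as well when a library was left out. In 2KO against deltaEmu, the calls of Klra17, Klra3 and Klra14-ps were lost without deltaEmu 5 or deltaEmu 7, while Klri2 kept its call. Leaving out either RAG2_deficient library added calls there. In 2KO against RAG2_deficient, only the call of Klrb1c stayed without any 1 of 2KO 1, 2KO 3, deltaEmu 5 and deltaEmu 7. Those of Klrk1, Klrc2, Klra14-ps and Klra13-ps were lost without RAG2_deficient 2, and calls were added without RAG2_deficient 1. In deltaEmu against RAG2_deficient, the calls of Klra8, Klrb1, Klrb1b, Klrc1 and Klrd1 were lost without deltaEmu 5 or deltaEmu 7. Without deltaEmu 7, those of Klrc2, Klra13-ps and Klra3 were lost too. A group cut to 1 library is assumed there to vary like the others.

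Klrd1 and Klrk1, each the only gene of its subfamily, were present in every femoral library. Klrd1 (chr6:129591782-129598775), the CD94 chain, had 13.9 and 9.03 CPM in 2KO, 10.7 and 8.79 CPM in deltaEmu, 20.9 and 19.4 CPM in RAG2_deficient and at most 0.18 CPM in spleen. Both RAG2_deficient libraries lay above all others, and 2KO overlapped deltaEmu. Klrd1 was 2.13-fold lower in deltaEmu than in RAG2_deficient (log2 fold change -1.09 ± 0.25, adjusted p = 0.032), while 2KO against RAG2_deficient gave -0.84 ± 0.24 (adjusted p = 0.101). Klrk1 (chr6:129610323-129623864), which encodes NKG2D, had 14.3 and 14.8 CPM in 2KO, 23.8 and 15.4 CPM in deltaEmu, 27.0 and 30.4 CPM in RAG2_deficient and at most 0.12 CPM in spleen. The 3 femoral groups did not overlap. Klrk1 was 2.01-fold lower in 2KO than in RAG2_deficient (-1.01 ± 0.22, adjusted p = 0.0495), and deltaEmu against RAG2_deficient gave -0.59 ± 0.22 (adjusted p = 0.141).

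The Klrc genes encode the NKG2 partners of CD94. Klrc2 (chr6:129647496-129660689), the activating NKG2C chain, had 3.62 and 2.94 CPM in 2KO, 1.43 and 0.742 CPM in deltaEmu, 8.06 and 16.7 CPM in RAG2_deficient and at most 0.0803 CPM in spleen. The 3 femoral groups were apart, with deltaEmu lowest. Klrc2 was 3.87-fold lower in 2KO than in RAG2_deficient (-1.95 ± 0.42, adjusted p = 0.0451) and 11.6-fold lower in deltaEmu than in RAG2_deficient (-3.54 ± 0.47, adjusted p = 0.00443). In 2KO against deltaEmu its log2 fold change was 1.59 ± 0.47 (adjusted p = 0.138).

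Klrc1 (chr6:129666015-129678973), the inhibitory NKG2A chain, had 3.85 and 2.54 CPM in 2KO, 1.48 and 2.00 CPM in deltaEmu, 5.63 and 8.81 CPM in RAG2_deficient and at most 0.12 CPM in spleen. It was 4.29-fold lower in deltaEmu than in RAG2_deficient (-2.10 ± 0.38, adjusted p = 0.0147), and 2KO against RAG2_deficient gave -1.21 ± 0.36 (adjusted p = 0.107). Klrc3 (chr6:129639064-129643337), for the NKG2E chain, stood apart from its neighbours in order of levels. It had 0.428 and 0.757 CPM in 2KO, 3.54 and 2.00 CPM in deltaEmu, 0.296 and 2.32 CPM in RAG2_deficient and no count in spleen. Its RAG2_deficient libraries spanned both 2KO libraries and overlapped deltaEmu, and none of its femoral comparisons passed the test (adjusted p = 0.233 in 2KO against deltaEmu).

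Klre1 and the Klri genes encode chains that pair with each other, an inhibitory form with KLRI1 and an activating form with KLRI2. Klre1 (chr6:129577905-129585827) had 5.71 and 3.96 CPM in 2KO, 6.15 and 5.65 CPM in deltaEmu, 9.12 and 9.78 CPM in RAG2_deficient and at most 0.0835 CPM in spleen. Both RAG2_deficient libraries were highest, with log2 fold changes of -1.0 ± 0.26 in 2KO (adjusted p = 0.0753) and -0.72 ± 0.26 in deltaEmu (adjusted p = 0.126) that did not pass. Klri1 (chr6:129697218-129717132) was low throughout, with 1.62 and 0.757 CPM in 2KO, 0.739 and 0.399 CPM in deltaEmu, 0.178 and 1.21 CPM in RAG2_deficient and at most 0.0418 CPM in spleen. Its RAG2_deficient libraries lay on both sides of the deltaEmu ones, and no femoral comparison of it passed (adjusted p = 0.593 to 0.823).

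Klri2 (chr6:129729041-129740484), close to Klri1 in the same array, gave the steepest pattern of the family. It had 7.23 and 4.45 CPM in 2KO (152 and 100 counts), 0.0492 and 0 CPM in deltaEmu (1 and 0 counts), 9.78 and 15.5 CPM in RAG2_deficient (165 and 320 counts) and no count in spleen. The deltaEmu libraries thus held 1 count between them, while every other femoral library held at least 100. Over summed counts, 2KO exceeded deltaEmu 219-fold (95% counting interval 39.0 to 8690) and RAG2_deficient exceeded deltaEmu 489-fold (87.3 to 19400). The fitted log2 fold changes were 7.49 ± 0.72 in 2KO against deltaEmu (adjusted p = 0.0016) and -8.64 ± 0.69 in deltaEmu against RAG2_deficient (adjusted p = 0.000515). In 2KO against RAG2_deficient it was -1.15 ± 0.36 (adjusted p = 0.125). Klri2 passed in both deltaEmu comparisons under each of 10 alternative settings.

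**Figure D4:**
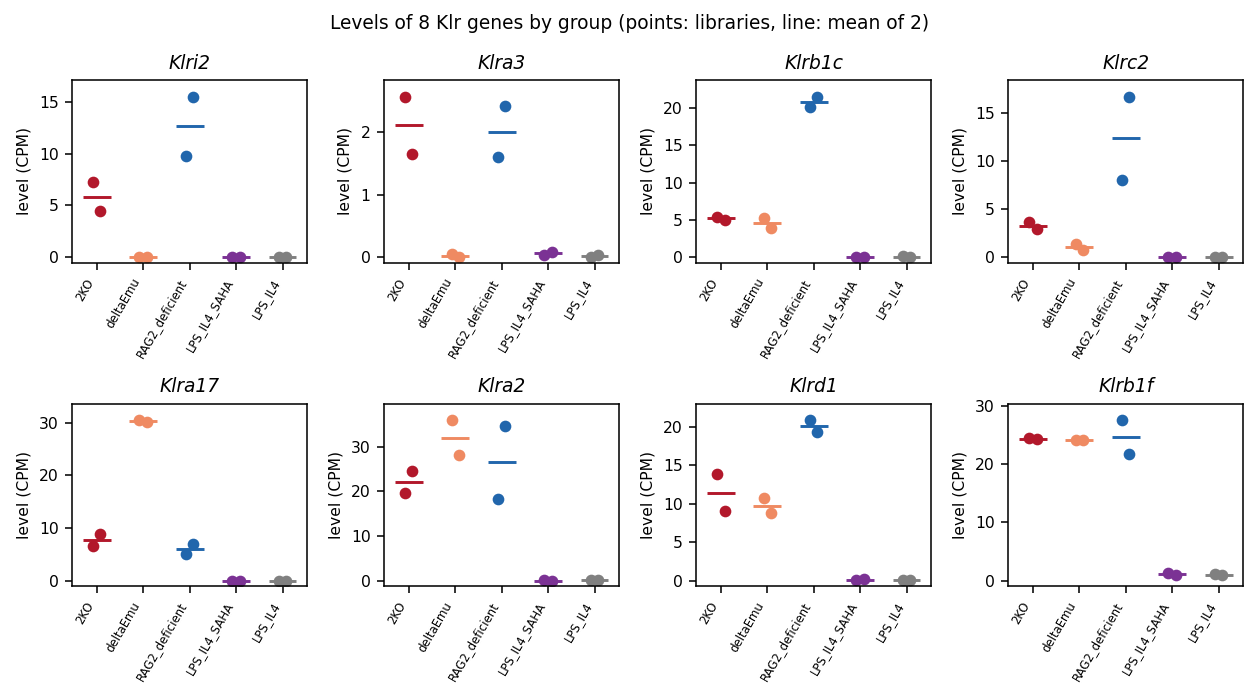
Level (CPM, linear axes from 0) of 8 Klr genes in each library, by group, with a line at the mean of the 2 libraries. Klri2 and Klra3 are at 0 to 0.0492 CPM in deltaEmu, Klra17 is at 30.1 to 30.5 CPM there, and Klrb1f is at 21.7 to 27.6 CPM in all femoral libraries.

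Within the Klrb genes the patterns ranged between level and nearly uncounted. Klrb1f (chr6:129045901-129057464), an NKR-P1F receptor gene, had 24.5 and 24.3 CPM in 2KO, 24.2 and 24.1 CPM in deltaEmu and 27.6 and 21.7 CPM in RAG2_deficient. The RAG2_deficient libraries spanned the other 4, and its log2 fold changes were 0.03 ± 0.17, -0.04 ± 0.17 and -0.07 ± 0.17 in the 3 comparisons. Klrb1a (chr6:128609227-128623533), for NKR-P1A, had 2.24 and 1.60 CPM in 2KO, 4.33 and 3.08 CPM in deltaEmu, 1.90 and 2.57 CPM in RAG2_deficient and at most 0.045 CPM in spleen. Its deltaEmu libraries were highest, with no call (adjusted p = 0.25 in 2KO against deltaEmu).

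Klrb1c (chr6:128778485-128789215) encodes NKR-P1C, the NK1.1 antigen of C57BL mice. It had 5.42 and 4.98 CPM in 2KO, 5.32 and 3.88 CPM in deltaEmu, 20.1 and 21.5 CPM in RAG2_deficient and at most 0.108 CPM in spleen. Both RAG2_deficient libraries stood far above the other 4, which overlapped. Klrb1c was 4.08-fold lower in 2KO (-2.03 ± 0.22, adjusted p = 0.00377) and 4.65-fold lower in deltaEmu (-2.22 ± 0.23, adjusted p = 0.00164), each against RAG2_deficient. Both calls held under each of 10 alternative settings.

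Klrb1b (chr6:128813706-128826331), for the inhibitory NKR-P1B that binds Clec2d, had 0.476 and 0.935 CPM in 2KO, 0.0985 and 0.0571 CPM in deltaEmu, 1.78 and 2.62 CPM in RAG2_deficient and at most 0.0803 CPM in spleen. The deltaEmu libraries held 2 and 1 counts, and the 3 groups did not overlap. Over summed counts RAG2_deficient exceeded deltaEmu 28.2-fold (9.33 to 140), which was called (adjusted p = 0.00512), and 2KO exceeded deltaEmu 8.99-fold (2.80 to 46.0), which was not (adjusted p = 0.0645). Klrb1 (chr6:128705836-128723059), a further receptor gene of this subfamily, had 0.476 and 0.223 CPM in 2KO, 0.0492 and 0 CPM in deltaEmu, 1.18 and 1.45 CPM in RAG2_deficient and no count in spleen. Its groups did not overlap either. RAG2_deficient exceeded deltaEmu 50.4-fold (8.64 to 2030), a difference that was called (adjusted p = 0.00917), and 2KO exceeded deltaEmu 13.1-fold (2.01 to 549), which was not (adjusted p = 0.137).

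The Klra genes split into several patterns. Klra17 (chr6:129831154-129876672), for Ly49Q, is known from plasmacytoid dendritic cells and neutrophils, unlike most of its relatives. It had 6.66 and 8.86 CPM in 2KO, 30.5 and 30.1 CPM in deltaEmu, 5.15 and 6.97 CPM in RAG2_deficient and no count in spleen. Both deltaEmu libraries stood above all others, and 2KO overlapped RAG2_deficient. Klra17 was 3.87-fold lower in 2KO than in deltaEmu (-1.95 ± 0.23, adjusted p = 0.00431) and 4.83-fold higher in deltaEmu than in RAG2_deficient (2.27 ± 0.24, adjusted p = 0.0017). The neutrophil marker sum was likewise highest in deltaEmu (18100 to 20700 CPM), with 5 of 10 markers called higher than in RAG2_deficient and none called in 2KO against deltaEmu. Its part in this result was not tested. The sum of the 10 plasmacytoid dendritic markers was 881 to 936 CPM in 2KO, 1010 to 1020 CPM in deltaEmu and 996 to 1060 CPM in RAG2_deficient. That sum was 742 to 789 CPM in spleen libraries too, so it does not single out these cells.

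Klra2 (chr6:131219223-131247362), for Ly49B, another member known from myeloid cells, had 19.6 and 24.5 CPM in 2KO, 36.0 and 28.2 CPM in deltaEmu, 18.4 and 34.7 CPM in RAG2_deficient and at most 0.0803 CPM in spleen. Its RAG2_deficient libraries spanned those of 2KO, and no femoral comparison passed (adjusted p = 0.461 to 0.683). Without Klra2 and Klra17, the other 12 Klra genes summed to 22.0 and 20.7 CPM in 2KO, 28.7 and 18.5 CPM in deltaEmu and 45.1 and 71.3 CPM in RAG2_deficient. Here too 2KO lay within the deltaEmu libraries, and both RAG2_deficient libraries were higher.

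Klra8 and Klra4 encode the activating receptors Ly49H and Ly49D. Klra8 (chr6:130115226-130129898) had 2.52 and 2.54 CPM in 2KO, 1.18 and 1.14 CPM in deltaEmu, 7.05 and 13.2 CPM in RAG2_deficient and at most 0.0538 CPM in spleen. The 3 groups did not overlap. Klra8 was 4.10-fold lower in 2KO (-2.04 ± 0.35, adjusted p = 0.0235) and 8.98-fold lower in deltaEmu (-3.17 ± 0.38, adjusted p = 0.00324), each against RAG2_deficient. Klra4 (chr6:130043731-130067271) had 4.04 and 4.27 CPM in 2KO, 9.06 and 6.96 CPM in deltaEmu, 10.1 and 13.6 CPM in RAG2_deficient and at most 0.161 CPM in spleen. Here 2KO was lowest and deltaEmu lay between. Klra4 was 2.90-fold lower in 2KO than in RAG2_deficient (-1.54 ± 0.26, adjusted p = 0.0221), and deltaEmu against RAG2_deficient gave -0.61 ± 0.25 (adjusted p = 0.175). The order of 2KO and deltaEmu was thus opposite for these activating receptors, with log2 fold changes of 1.13 ± 0.39 for Klra8 and -0.93 ± 0.26 for Klra4 that did not pass (adjusted p = 0.203 and 0.112).

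The inhibitory Ly49 genes included 1 with almost no count in deltaEmu. Klra3 (chr6:130323289-130337574), for Ly49C, had 2.57 and 1.65 CPM in 2KO (54 and 37 counts), 0.0492 and 0 CPM in deltaEmu (1 and 0 counts), 1.60 and 2.42 CPM in RAG2_deficient (27 and 50 counts) and at most 0.0901 CPM in spleen. 2KO overlapped RAG2_deficient, and deltaEmu was below both. Over summed counts, 2KO exceeded deltaEmu 79.2-fold (13.9 to 3160, adjusted p = 0.00654) and RAG2_deficient exceeded deltaEmu 77.6-fold (13.5 to 3110, adjusted p = 0.0046). In 2KO against RAG2_deficient its log2 fold change was 0.03 ± 0.44.

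Klra7 (chr6:130218605-130233322), for Ly49G, had 4.23 and 3.65 CPM in 2KO, 9.40 and 3.77 CPM in deltaEmu, 7.05 and 8.86 CPM in RAG2_deficient and at most 0.0901 CPM in spleen. Its deltaEmu libraries spanned RAG2_deficient and overlapped 2KO, and none of its femoral comparisons was called. Klra9 (chr6:130178675-130193112), for Ly49I, had 0.523 and 1.16 CPM in 2KO, 1.18 and 0.970 CPM in deltaEmu, 2.25 and 3.78 CPM in RAG2_deficient and no count in spleen. Both RAG2_deficient libraries were highest, without a call (adjusted p = 0.073 in 2KO and 0.0868 in deltaEmu). Klra1 (chr6:130363917-130386874), for Ly49A, had 1.48 and 1.60 CPM in 2KO, 3.20 and 2.62 CPM in deltaEmu, 1.42 and 2.08 CPM in RAG2_deficient and at most 0.292 CPM in spleen. Its deltaEmu libraries were highest, again without a call (adjusted p = 0.254 and 0.262). Klra5 (chr6:129898996-129917650), for Ly49E, had 0.190 and 0.312 CPM in 2KO, 0.739 and 0.514 CPM in deltaEmu, 0.178 and 0.387 CPM in RAG2_deficient and no count in spleen, and was too low for the femoral tests.

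Pseudogenes of the Klra array took part in the same differences. Klra14-ps (chr6:130148799-130162569) had 1.14 and 1.25 CPM in 2KO (24 and 28 counts), 0 and 0.0571 CPM in deltaEmu (0 and 1 counts), 3.91 and 8.48 CPM in RAG2_deficient (66 and 175 counts) and at most 0.0538 CPM in spleen. The 3 groups did not overlap, and all 3 comparisons were called. Over summed counts, 2KO exceeded deltaEmu 45.2-fold (7.77 to 1820, adjusted p = 0.024), and RAG2_deficient exceeded deltaEmu 243-fold (43.2 to 9640, adjusted p = 0.00181). It was 5.30-fold lower in 2KO than in RAG2_deficient (-2.41 ± 0.48, adjusted p = 0.0377). Klra13-ps (chr6:130290878-130306428) had 5.09 and 3.87 CPM in 2KO, 3.05 and 1.94 CPM in deltaEmu, 10.9 and 16.5 CPM in RAG2_deficient and at most 0.108 CPM in spleen. Its groups were also apart. Klra13-ps was 3.12-fold lower in 2KO (-1.64 ± 0.32, adjusted p = 0.0357) and 5.63-fold lower in deltaEmu (-2.49 ± 0.34, adjusted p = 0.00507), each against RAG2_deficient.

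In all, 5 members had 0 to 3 summed counts in deltaEmu and more than 3 in each of the other femoral groups: Klrb1, Klrb1b, Klri2, Klra14-ps and Klra3. The share of all genes that meet this rule was not counted, so how unusual the number is cannot be said. The 5 members were scattered along the complex, with Klrb1f, Klrd1, Klrk1, Klra17 and other well-counted members between them. Whether deltaEmu carries other gene content or alleles at the 5 was not tested.

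SAHA could be tested for 1 member. Klrb1f had 1.34 and 0.991 CPM in LPS_IL4_SAHA and 1.13 and 0.964 CPM in LPS_IL4. The groups overlapped, at a log2 fold change of 0.12 ± 0.42 (adjusted p = 0.963). Not one of the 13913 genes tested passed with edgeR (0.0%) or with DESeq2, and 187 had an unadjusted p under 0.05. Without LPS_IL4 4_et_7, 2670 of 14862 genes were called, with no Klr gene among them. The other members had too few counts for the test, at 0 to 0.292 CPM a library. Summed over all 30, the counts were 64 and 48 in LPS_IL4_SAHA and 36 and 63 in LPS_IL4. Klra1 had 0.292 and 0.225 CPM in LPS_IL4_SAHA, against 0.0538 and 0 CPM in LPS_IL4, and the groups did not overlap. Over summed counts (12 and 1), LPS_IL4_SAHA exceeded LPS_IL4 11.3-fold for Klra1, with a 95% counting interval of 1.67 to 483 that leaves out the spread between pools. Groups did not overlap for 8 of the 30 members, against 25.8% of genes tested. Only 1 of the 30 was itself tested, so these shares cover unlike sets. Without the filter on low counts, edgeR tested 20 Klr genes and called none. Klra1 is given here after its values were seen.

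Genes for ligands, adaptors and regulators of the receptors were compared in the same fits. Of the 12 ligand genes tested, none was called in 2KO against deltaEmu, 1 was lower in 2KO than in RAG2_deficient (Cdh2, encoding the KLRG1 ligand N-cadherin), and 4 were lower in deltaEmu than in RAG2_deficient (Cdh2, Clec2i, Raet1e and Clec2e). The share called lower over all genes was 3.05% in 2KO against RAG2_deficient and 5.39% in deltaEmu against RAG2_deficient. Cdh2 averaged 3.68 ± 0.0862 CPM in 2KO, 5.12 ± 0.346 CPM in deltaEmu and 16 ± 1.03 CPM in RAG2_deficient (SD, n = 2 each). Clec2i, a ligand gene of NKR-P1F, had 16.8 and 16 CPM in 2KO, 14.4 and 12.7 CPM in deltaEmu and 23 and 23.6 CPM in RAG2_deficient, and was lower in deltaEmu than in RAG2_deficient (-0.83 ± 0.17, adjusted p = 0.0231). The groups did not overlap. Clec2d, the ligand gene of NKR-P1B, had 79.7 and 72.6 CPM in 2KO, 110 and 167 CPM in deltaEmu and 209 and 115 CPM in RAG2_deficient, with no call. H2-T23, which encodes Qa-1, averaged 115 ± 12.0 CPM in 2KO, 142 ± 25.1 CPM in deltaEmu and 115 ± 34.0 CPM in RAG2_deficient (SD, n = 2 each), also with no call.

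Among 18 adaptor and signalling genes, 1 was called in 2 of the femoral comparisons. Sh2d1b1, for the NK adaptor EAT-2, averaged 7.19 ± 0.796 CPM in 2KO, 1.68 ± 0.287 CPM in deltaEmu and 5.20 ± 0.776 CPM in RAG2_deficient (SD, n = 2 each). It was higher in 2KO than in deltaEmu (2.11 ± 0.29, adjusted p = 0.00818) and lower in deltaEmu than in RAG2_deficient (-1.67 ± 0.29, adjusted p = 0.0136). Tyrobp, for the DAP12 adaptor of activating Ly49 receptors, had 520 and 421 CPM in 2KO, 598 and 770 CPM in deltaEmu and 660 and 326 CPM in RAG2_deficient. Hcst, for the DAP10 adaptor of NKG2D, had 10.0 and 8.94 CPM in 2KO, 9.65 and 14.7 CPM in deltaEmu and 12.5 and 4.94 CPM in RAG2_deficient. Groups overlapped for Tyrobp and Hcst in the comparisons with RAG2_deficient, and neither gene was called. Of 13 NK transcription factor genes tested, only Nfil3 was called, higher in 2KO (1.07 ± 0.19, adjusted p = 0.0242) and in deltaEmu (1.09 ± 0.19, adjusted p = 0.0122), each against RAG2_deficient. Over all genes the share called was 3.7% in 2KO against deltaEmu, 4.31% in 2KO against RAG2_deficient and 9.81% in deltaEmu against RAG2_deficient. Single calls in lists of 18 and 13 genes are near those shares.

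Markers of other lineages also differed between the femoral groups. Erythroid markers summed to 10500 to 15500 CPM in 2KO, 2480 to 2630 CPM in deltaEmu and 3120 to 5740 CPM in RAG2_deficient, with 9 of 10 called higher in 2KO than in deltaEmu and 4 of 10 higher in 2KO than in RAG2_deficient. T cell markers, which some Klr-bearing cells share, summed to 31.9 to 36.2 CPM in 2KO, 38.7 to 40.4 CPM in deltaEmu and 38.0 to 41.6 CPM in RAG2_deficient. Of 13 tested, 1 (Cd3e) was higher in 2KO than in RAG2_deficient, and 4 were higher and 1 lower in deltaEmu than in RAG2_deficient. Erythroid markers held 1 of 10 called lower in that last comparison. The innate lymphoid sum was 153 to 178 CPM in 2KO, 168 to 184 CPM in deltaEmu and 186 to 217 CPM in RAG2_deficient, with 1 of 9 tested markers called in deltaEmu against RAG2_deficient and none in the others. Monocyte and macrophage markers summed to 2650 to 2840 CPM in 2KO, 3330 to 3800 CPM in deltaEmu and 1820 to 2660 CPM in RAG2_deficient, and basophil and mast cell markers to 399 to 529, 373 to 422 and 275 to 389 CPM in the same order. Of the 10 monocyte and macrophage markers, 1 was higher in 2KO than in RAG2_deficient, and 3 were higher and 1 lower in deltaEmu than in RAG2_deficient. Of the 6 basophil and mast cell markers, 1 was higher in 2KO than in RAG2_deficient. The shares of all genes called were 3.7% in 2KO against deltaEmu, 4.31% in 2KO against RAG2_deficient and 9.81% in deltaEmu against RAG2_deficient. The part of these lineages in the Klr differences was not tested.

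The 28 clustered Klr genes are interspersed with 92 other gene entries, of which 23 were tested among femoral libraries. In 2KO against deltaEmu only Cd69, the early activation antigen gene, was called. Cd69 had 114 and 109 CPM in 2KO, 350 and 336 CPM in deltaEmu and 138 and 102 CPM in RAG2_deficient. It was lower in 2KO than in deltaEmu (-1.61 ± 0.20, adjusted p = 0.00578) and higher in deltaEmu than in RAG2_deficient (1.48 ± 0.20, adjusted p = 0.00515). Klra17 was likewise highest in deltaEmu. None of the 23 was called in 2KO against RAG2_deficient. In deltaEmu against RAG2_deficient, BC064078 was also higher, and 6 entries were lower: Clec9a, a receptor gene of cross-presenting dendritic cells (-1.43 ± 0.23, adjusted p = 0.00982), Clec2e, Clec2i, 4922502D21Rik, RP24-127M20.6 and RP24-127M20.7. These 8 of 23 stand beside 9.81% of all genes called in that comparison. Clec2e had 3 and 4 counts in 2KO, 3 and 0 counts in deltaEmu and 10 and 25 counts in RAG2_deficient. Set against spleen, 19 of 25 tested neighbours were higher and 3 lower in femoral libraries, where 40.9% of all genes were higher and 30.6% lower.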

How the data were processed

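Raw counts of reads in each gene were deposited by the authors, in 1 table covering the 10 libraries. Per the labels' protocols, 500 ng of total RNA from miRNeasy extracts entered stranded total RNA libraries. Per the submitters' processing notes, STAR 2.4.0a, featureCounts from Subread 1.4.6-p1 and mm10/GRCm38 were used. The sources used here do not give the annotation release, the strand setting or the handling of multiply matching reads. The 100 control sequence entries were removed.

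The main test was edgeR's quasi-likelihood test (edgeR 4.0.16 under R 4.3.3), after TMM scaling and a low-count filter (filterByExpr, minimum count 10). Its p-values were adjusted by the Benjamini-Hochberg method across every gene tested, and an adjusted p under 0.05 made a call. Femoral comparisons used a fit of 6 libraries, SAHA a fit of 4, and femoral against spleen a fit of 10. Standard errors were taken from the fold change and its F value. In comparisons of 2 libraries with 2, an exact permutation test could not pass the threshold. Levels are CPM on TMM-adjusted totals. Folds against no spleen count are bounds at 3 counts a library, and counting intervals (95%) cover counting error only. Alternatives used DESeq2 1.42.0, its size factors, no filter, removal of immunoglobulin, mitochondrial and ribosomal RNA genes, libraries left out, and a replicate block. The fits were tested on simulated counts. RAG2_deficient replicates are numbered as in the titles.

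Members and lists were chosen with earlier results of these data known. Members with a group mean of at least 1 CPM, or called in a comparison, are given by library. Of other lists, at most the 3 called genes of smallest adjusted p a comparison are named, plus H2-T23, Hcst, Tyrobp, Clec2d and Clec2i, and called neighbours. Ncr1, Rag2, Cd3e, the spleen values of Klra1 and the Clec2e counts were added beside this rule after their values were seen.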

Additional observations from a re-analysis of the deposited data

How the results depend on the processing

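Every called Klr gene kept its direction under each alternative run. Without the filter on low counts, 10 of 30 Klr genes tested were called in 2KO against deltaEmu, in place of 4 of 24. In 2KO against RAG2_deficient 17 of 30 were called, in place of 7 of 24. Over all genes, 1537 and 1971 of 27469 were called in these comparisons, in place of 612 and 713 of 16538. In LPS_IL4_SAHA against LPS_IL4, 145 genes were called in place of 0, with no Klr gene among them. The cause was not tested. Leaving out 1 library at a time gave 1 to 9 calls in 2KO against deltaEmu, 1 to 15 in 2KO against RAG2_deficient, 4 to 15 in deltaEmu against RAG2_deficient, 0 in LPS_IL4_SAHA against LPS_IL4 and 24 to 27 in femoral against spleen. DESeq2's test gave 5, 9, 12, 0 and 24 calls in the same order, and DESeq2 size factors or removal of immunoglobulin, mitochondrial and ribosomal RNA genes left each count as it was. For the spleen pools, a replicate block on the pool numbers gave 0 calls, as did a crossed replicate block added after seeing that same-numbered pools deviated in opposite directions (r = -0.442 over 13913 genes). The shared numbers are not stated to mark a common source. No paired analysis was made for the femoral groups, since the labels state no pairing between libraries of 2KO, deltaEmu and RAG2_deficient. Of 150 group mean levels, 14 moved by more than the spread between libraries when plain totals replaced TMM-adjusted ones. Depth limits the members with 0 to 3 counts in a group, whose folds have wide intervals, and all spleen comparisons of Klr genes other than Klrb1f.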
